A study of Mus musculus with 9 samples.

Results

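The Hippo pathway restrains the transcriptional coactivators YAP, encoded by Yap1, and TAZ, encoded by Wwtr1. Chromatin accessibility was described here at 10 genes of this pathway in primary mouse embryonic fibroblasts (MEFs), chosen by name. They were the 4 TEAD transcription factor genes Tead1, Tead2, Tead3 and Tead4, the coactivator genes Yap1 and Wwtr1, the TEAD cofactor gene Vgll3, the pathway regulators Lats2 and Amotl2, and the YAP target gene Ankrd1. The assay was ATAC-seq, where a transposase, Tn5, inserts sequencing adapters into open chromatin. Peaks of 4 peak lists were merged into 128522 sites wherever they overlapped or touched, and 144 of these sites lay within the body of a member gene or within 10 kb of it. Of the 144, 19 lay within 1 kb of an annotated transcription start site (TSS) of their gene.

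The 4 groups were wild type (WT) MEFs with 3 libraries, Anp32e null MEFs with 3 libraries, Anp32e null MEFs given a non-targeting (NT) siRNA pool, 1 library, and Anp32e null MEFs given a pool of 4 H2A.Z siRNAs, 2 libraries. ANP32E is a chaperone that removes the histone variant H2A.Z from chromatin. Both siRNA groups carried the null genotype, and no WT group received an siRNA. The primary cells, from donated WT and null embryo cultures, were used below passage 8. WT and null cells came from different embryos, so genotype cannot be told apart from embryo or culture of origin. Every list from null cells shares this limit, so agreement among those lists is not independent evidence on genotype. The questions were which sites of the pathway differ between null and WT cells, and which differ once H2A.Z is depleted in null cells. The libraries of a group had been merged before peaks were called, so each group was 1 list, no replicate spread could be computed and no test between groups was made.

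In the Hippo pathway, upstream kinases activate LATS1 and LATS2, which phosphorylate YAP and TAZ and keep them in the cytoplasm. Unphosphorylated YAP and TAZ enter the nucleus, where they bind DNA through TEAD proteins and switch on target genes such as Ankrd1, Ccn1 and Ccn2. Several regulators of the pathway, among them Lats2 and Amotl2, are themselves known targets, so the pathway feeds back on itself. In fibroblasts, which spread on stiff plastic in culture, YAP and TAZ are known as sensors of cell shape and tension.

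On the assembled chromosomes, the null list was the shortest with 82567 peaks, followed by WT with 84040 and the NT siRNA list with 89272, and the list from H2A.Z-depleted cells held 108409. Depth was read from the peaks, as the number of fragments piled up at each summit. The median summit held 50 fragments in WT, 43 in null, 54 with NT siRNA and 156 with H2A.Z siRNA. The H2A.Z siRNA list was therefore the deepest. At the genome-wide background, 32 fragments were needed for a call in that list and 11 in the NT siRNA list. Peaks lay at a TSS of 8 of 8 fibroblast markers in all 4 lists, at 3 of 3 epithelial markers in all 4, and at 3, 2, 3 and 3 of 3 endothelial markers in the order WT, null, NT siRNA and H2A.Z siRNA. Of 3 blood markers, none had a TSS peak in the first 3 lists and Spi1 had one after H2A.Z siRNA. Of 3 pluripotency markers, Sox2 had one in every list and Pou5f1 after H2A.Z siRNA alone. Ptprc, Cd3e and Nanog had none in any list. An open TSS thus did not separate fibroblasts from epithelial or endothelial cells, while 2 of the 3 blood markers stayed without a peak throughout. Fewer open alleles or fewer cells of a type cannot be told apart from less accessibility per cell. The part that cell composition plays in any difference was not tested. The lists carry no RNA, so neither the loss of Anp32e nor the depletion of H2A.Z was checked here.

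Peak strength was compared by rank. MACS2 reports for each peak a fold enrichment, which is the summit pileup over the local background, and this fold was turned into a percentile within its own list, where 100 is the strongest peak. A difference of 10 percentile points or more was called, as a description. Since a percentile depends on the local background and on the length of the list, summit fragments were also compared directly, as a ratio divided by the median ratio of all sites shared by the pair. That relative fragment ratio carries a 95% interval that covers counting error only. The interval makes no allowance for sites picked by their rank difference, since rank is built on the same summit fragments. The median ratio itself was 0.872 for null over WT and 3.80 for H2A.Z siRNA over NT siRNA.

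The genes differed in size and in the number of sites they held. All positions are on GRCm38 (mm10) with GENCODE M21 annotation. Tead1 (chr7:112679318-112906807, plus strand) was the longest and held 42 sites. Tead4 (chr6:128224288-128300823, minus) and Wwtr1 (chr3:57455649-57575910, minus) held 20 each. Lats2 (chr14:57689662-57758388, minus) held 16, Yap1 (chr9:7931999-8004596, minus) 11, and Amotl2 (chr9:102716672-102733418, plus) 10. Tead3 (chr17:28331671-28350817, minus) and Vgll3 (chr16:65815257-65866368, plus) held 9 each, Ankrd1 (chr19:36111961-36120099, minus) 4 and Tead2 (chr7:45215753-45233644, plus) 3. Per 10 kb of window, Amotl2 was the densest with 2.72 sites and Tead2 the sparsest with 0.792. By the position of the summit, 94 of the 144 sites were intronic, 20 downstream, 13 upstream, 13 in a UTR, 2 in a coding exon and 2 in another exon.

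TEAD proteins recognise the core CATTCC, which was searched on both strands within 100 bp of each summit and reads GGAATG when it lies on the minus strand. Of the 10 leading TSS sites, defined for each gene as its TSS site of highest mean percentile over the lists, 6 held this core. They are shown on the plus strand of GRCm38 with the core in capitals. The summit searched was that of the list in which the site ranked highest. The core can therefore lie further from the summits of the other lists. At Tead3 the core lay within 100 bp of the H2A.Z siRNA summit and not of the WT summit. Where the window overlapped a UTR, 30 bases around the core are given. They lay at chr19:36120037-36120066 for Ankrd1, chr3:57576057-57576257 for Wwtr1, chr14:57746102-57746131 for Lats2, chr9:8004716-8004745 for Yap1, chr9:102717727-102717756 for Amotl2 and chr17:28350950-28351150 for Tead3.
Ankrd1 TSS: atgtgagagggtCATTCCtttggcagtgac
Lats2 TSS: ctacattgttggCATTCCacgggcgtcacg
Yap1 TSS: tccctgcgcgtcgctaCATTCCtgcagact
Amotl2 TSS: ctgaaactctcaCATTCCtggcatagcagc
Wwtr1 TSS: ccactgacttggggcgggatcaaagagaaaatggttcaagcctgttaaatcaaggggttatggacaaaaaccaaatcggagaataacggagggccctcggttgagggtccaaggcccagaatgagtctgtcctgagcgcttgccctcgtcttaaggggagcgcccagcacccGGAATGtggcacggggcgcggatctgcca
Tead3 TSS: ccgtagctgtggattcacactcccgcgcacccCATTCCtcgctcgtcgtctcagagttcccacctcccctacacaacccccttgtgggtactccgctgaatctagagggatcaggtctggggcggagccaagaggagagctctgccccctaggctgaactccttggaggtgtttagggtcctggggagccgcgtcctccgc

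Among the intronic sites singled out by their rank differences or by their absence from a list, 4 held the core, and their windows follow. The Wwtr1 intron site at chr3:57550856-57551056 had the largest rank rise after H2A.Z siRNA. The Tead1 intron site at chr7:112854609-112854809, with 2 cores, had one of the largest falls. The Wwtr1 intron site at chr3:57486273-57486473 was called in WT and not in null, and the Tead1 intron site at chr7:112770731-112770931 after NT siRNA alone.
Wwtr1 intron, rise after H2A.Z siRNA: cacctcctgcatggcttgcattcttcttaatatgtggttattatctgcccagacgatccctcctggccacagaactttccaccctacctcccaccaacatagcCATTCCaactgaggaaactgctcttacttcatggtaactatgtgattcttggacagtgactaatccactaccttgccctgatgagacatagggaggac
Tead1 intron, fall after H2A.Z siRNA: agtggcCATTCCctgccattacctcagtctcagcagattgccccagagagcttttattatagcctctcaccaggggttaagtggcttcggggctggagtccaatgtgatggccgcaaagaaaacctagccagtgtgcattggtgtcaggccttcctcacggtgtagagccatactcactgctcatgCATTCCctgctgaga
Wwtr1 intron, WT and not null: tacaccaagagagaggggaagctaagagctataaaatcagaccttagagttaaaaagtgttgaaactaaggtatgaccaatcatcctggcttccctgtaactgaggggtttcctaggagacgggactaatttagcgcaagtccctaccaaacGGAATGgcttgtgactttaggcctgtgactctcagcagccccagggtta
Tead1 intron, NT siRNA alone: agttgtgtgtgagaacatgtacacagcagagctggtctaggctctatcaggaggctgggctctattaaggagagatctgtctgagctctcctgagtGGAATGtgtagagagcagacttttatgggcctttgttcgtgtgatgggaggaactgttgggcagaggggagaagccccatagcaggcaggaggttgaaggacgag

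The core was in the windows of 39 of the 144 sites, or 27.1% (95% Wilson interval 20.5 to 34.9), and in 19.3% of all 128522 sites. At the 19 TSS sites it was in 8, or 42.1% (23.1 to 63.7), and at TSS sites of all genes in 12.2%. At sites with no TSS of any gene within 1 kb the shares lay closer together, with 29 of 117 member sites, or 24.8% (17.8 to 33.3), and 21.1% of all sites. The longer TEAD sequence ACATTCCA, which contains the core, was in 3 member windows, or 2.08% (0.711 to 5.95), against 2.94% of all sites. It was in 0 of the 19 TSS windows, for which the Wilson interval reaches 16.8%, against 1.30% of TSS sites of all genes. The AP-1 sequence TGANTCA was in 24.3% of member windows and 29.4% of all. The SP1 sequence GGGCGG was in 9 of the 19 TSS windows, or 47.4% (27.3 to 68.3), against 30.7% of TSS sites of all genes. The NF-Y sequence CCAAT was in 0 of the 19, for which the Wilson interval reaches 16.8%, against 23.7%. Member TSS windows had a median GC content of 62.7% and those of all genes 57.7%. Its part in the motif shares was not tested, and windows of neighbouring sites in 1 gene are not independent.

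By gene, the core was in 13 of 42 sites of Tead1 (31.0%), 6 of 20 of Wwtr1, 3 of 10 of Amotl2 and 3 of 11 of Yap1 (27.3%), all near the share over the 144 sites. Vgll3 with 5 of 9 and Ankrd1 with 2 of 4 had the highest shares. Tead3 held it in 2 of 9, Tead4 in 3 of 20, Lats2 in 2 of 16 and Tead2 in none of its 3. With so few sites to a gene, these shares are a description.

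All 10 genes had a peak within 1 kb of a TSS in all 4 lists, as did 63.8% of 21938 protein-coding genes. Of the 19 TSS sites, 16 were called in WT, 14 in each of the null and NT siRNA lists, and 16 in the H2A.Z siRNA list. Of the 144 sites, 87 were called in WT, 81 in null, 101 with NT siRNA and 133 with H2A.Z siRNA. All 4 lists shared 67 sites, or 46.5%, and all 4 shared 45.9% of the sites of the whole genome. A single list alone held 38 sites, of which 29 were called after H2A.Z siRNA, 5 in WT, 3 after NT siRNA and 1 in null. Tead1 changed most in number, from 17 sites in null and 21 in WT to 31 with NT siRNA and 39 with H2A.Z siRNA. Vgll3 held 8 in WT and null and 7 in both siRNA lists, and Ankrd1 held the same 4 sites in all 4 lists. Yap1 was the one gene with most sites in WT, where it had 10, against 7 in null, 8 with NT siRNA and 9 with H2A.Z siRNA.

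**Figure D1:**
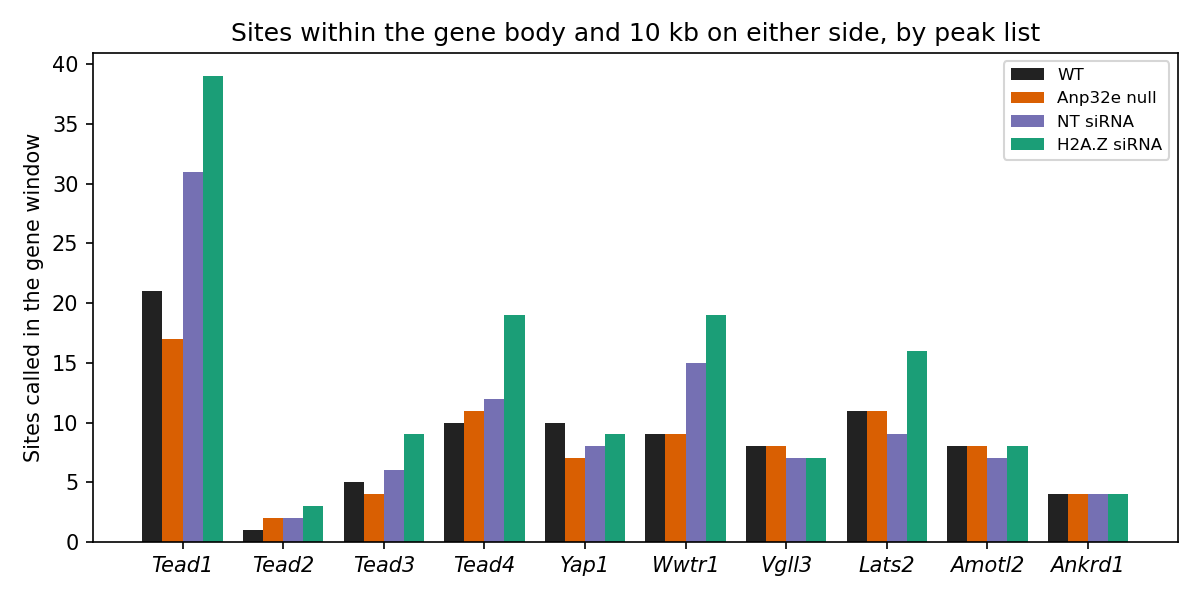
Number of sites called in each gene window (gene body and 10 kb on either side), with 1 bar per peak list. The H2A.Z siRNA bars are the highest at Tead1 (39), Tead4 (19), Wwtr1 (19) and Lats2 (16), whereas the 4 bars of Ankrd1 are equal at 4.

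At the leading TSS sites, 9 of the 10 genes ranked lower in null than in WT, and Ankrd1 alone ranked higher. The median difference was −6.55 percentile points, against −1.27 over the leading TSS sites of 12981 protein-coding genes, of which 38.5% ranked higher. Of the 10, 1 was at least 10 points higher (7.26% of all such sites) and 3, at Tead3, Wwtr1 and Amotl2, were at least 10 points lower (11.5% of all such sites). Ranked by −log10 p in place of fold, these 3 differences were −7.43, −3.09 and −7.83 points, so none of the falls reached 10 points on that scale. With a −log10 q of 5 or more, Tead3 stood at −9.94 and Tead4 at −10.3 points. Fibroblast markers moved in the same direction, since 6 of the 8 ranked lower in null, with a median of −8.66 points and a range from −24.1 at Prrx1 to 8.97 at Col1a2. Markers of other cell types went both ways. Of the epithelial markers Epcam differed by −23.6, Cdh1 by 1.76 and Krt8 by 2.19 points, of the endothelial markers Cdh5 by −14.7 and Kdr by −1.09, and the pluripotency marker Sox2 by −10.5. The part of any marker list in the result was not tested. The relative fragment ratio gave a different picture. Its interval lay above 1 at 2 of the 10 sites, Vgll3 and Ankrd1 (17.4% of all such sites), and below 1 at 1, Amotl2 (6.49% of all such sites). At the other 7 genes the interval held 1, so at this depth no difference in fragments beyond the shared scale was detectable there. These genes share WT and null libraries, so their differences are not independent of one another.

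Between the siRNA lists, all 10 leading TSS sites ranked higher after H2A.Z siRNA than after NT siRNA, where 66.6% of those of all protein-coding genes did. The median difference was 4.28 points, against 2.09 over 13238 sites. Of the 10, 1, at Tead1, was at least 10 points higher (14.4% of all such sites) and 0 were at least 10 points lower (2.90% of all such sites). The lists differed in length. With lists cut to equal length, 4 of the 10 still ranked higher and 6 ranked lower, namely Tead2, Tead3, Tead4, Yap1, Vgll3 and Amotl2. All 10 ranked higher with a −log10 q of 5 or more, and 9 of 10 did when ranked by −log10 p. All 10 also did when the H2A.Z siRNA list was scaled down to the genome-wide background of the NT siRNA list and called again, which left 96743 peaks against 89272 and so did not match the lengths. The fibroblast markers ranked higher at 8 of 8, with a median of 8.54 points. Markers of other cell types went both ways. The endothelial markers Pecam1, Cdh5 and Kdr differed by 29.6, 28.2 and −3.42 points, the epithelial markers Epcam, Krt8 and Cdh1 by 7.34, 4.78 and −9.92, and Sox2 by 6.14. The part of any marker list here was likewise not tested. The relative fragment ratio, which does not use ranks, had an interval above 1 at 4 of the 10, Tead1, Tead2, Wwtr1 and Ankrd1 (15.4% of all such sites), and below 1 at 1, Vgll3 (22.5% of all such sites).

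**Figure D2:**
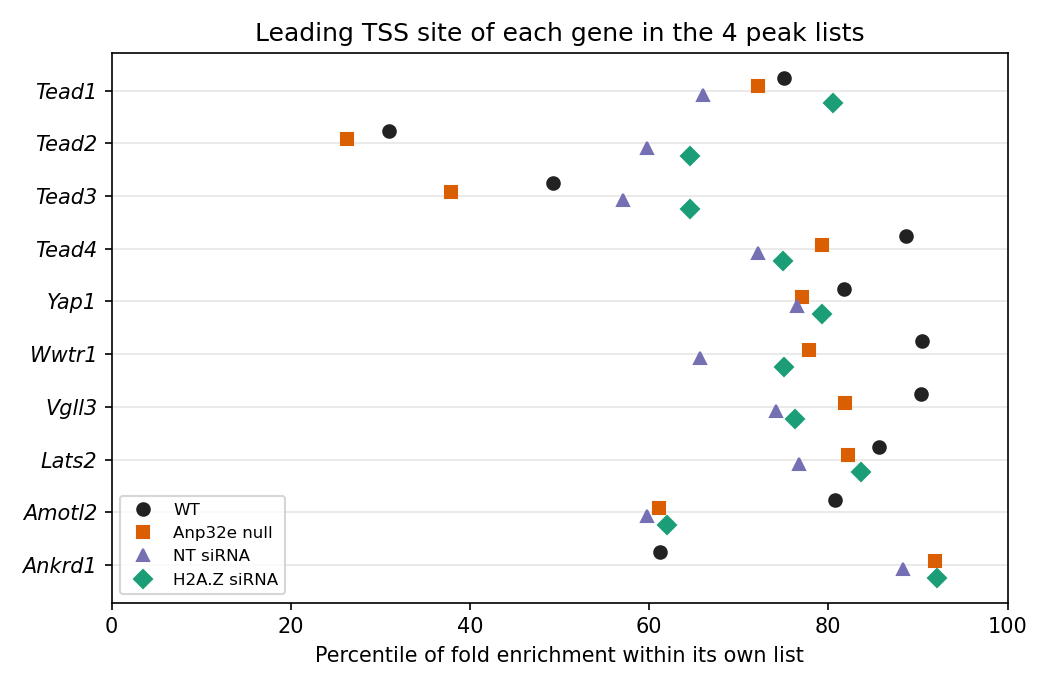
Percentile of fold enrichment within its own list (x axis, 0 to 100) for the leading TSS site of each gene, with 1 point per peak list. Ankrd1 stands at 61.2 in WT and at 88.3 or above in the other 3 lists, and Amotl2 at 80.7 in WT and at 62.0 or below in the other 3.

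**Figure D3:**
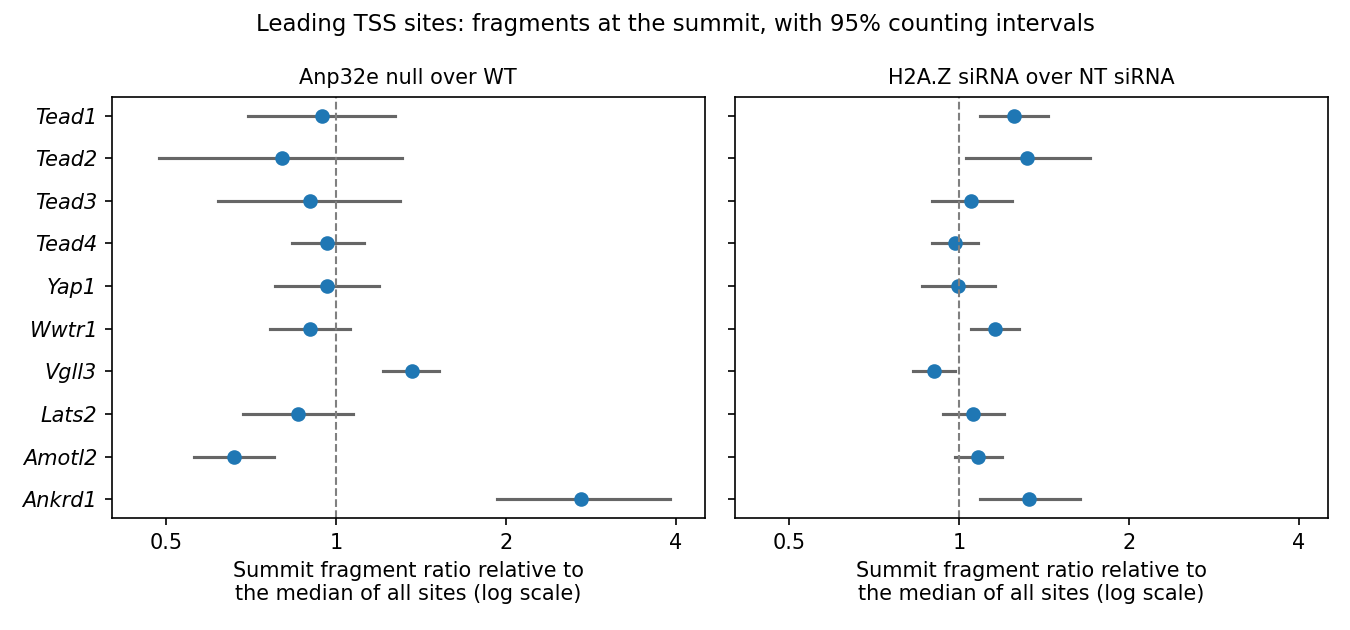
Ratio of summit fragments at each leading TSS site divided by the median ratio of all shared sites (log axis), for null over WT on the left and H2A.Z siRNA over NT siRNA on the right. Lines are 95% intervals for counting error, and the dashed line marks 1. For null over WT, Ankrd1 lies at 2.72, Vgll3 at 1.36 and Amotl2 at 0.659.

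The TEAD genes encode the DNA-binding partners of YAP and TAZ, and their leading TSS sites spanned a wide range of ranks in WT and null. Tead4 was the strongest of the 4 in WT, and Tead2 the weakest in WT and null. The leading Tead1 site (chr7:112678501-112680183, summit in a UTR, shared with a TSS of 2310014F06Rik) stood at percentile 75.1 in WT, 72.2 in null, 66.0 with NT siRNA and 80.5 with H2A.Z siRNA. Its summits held 102, 84, 245 and 1164 fragments in the same order. Rank was thus similar in WT and null, and the lowest and the highest value both fell in the siRNA lists, with a difference of 14.5 points and a relative fragment ratio of 1.25 (1.09 to 1.44). The rise remained positive in all 5 settings that measured it, between 6.65 and 16.9 points.

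The Tead2 site (chr7:45215520-45217191, UTR) was weak in the untransfected cells, with percentiles of 31.0 in WT and 26.3 in null, and stood at 59.8 with NT siRNA and 64.6 with H2A.Z siRNA. It held 43, 30, 75 and 376 fragments. Its peak spanned 427 bp in WT, 731 in null, 1388 bp with NT siRNA and 1648 bp with H2A.Z siRNA, so both rank and width were higher in the transfected lists. The relative fragment ratio was 0.800 (0.485 to 1.31) for null over WT and 1.32 (1.03 to 1.71) for H2A.Z siRNA over NT siRNA. With 30 fragments in null, the first of these intervals is wide.

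The Tead3 site (chr17:28350880-28351497, summit 0.23 kb upstream of the annotated start) ranked at 49.3 in WT, 37.9 in null, 57.1 with NT siRNA and 64.6 with H2A.Z siRNA. It held 69, 54, 186 and 746 fragments. The fall of 11.4 points in null came with a relative fragment ratio of 0.898 (0.617 to 1.30), an interval that holds 1, and the difference was −7.43 points when ranked by −log10 p. A nearby TSS site of Tead3 (chr17:28349363-28350351), named after its values were seen, was called in WT at percentile 3.68, was not called in null, and was called in both siRNA lists at 21.5 and 19.9.

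The Tead4 site (chr6:128299487-128301259, UTR) ranked at 88.7 in WT, 79.3 in null, 72.1 with NT siRNA and 74.9 with H2A.Z siRNA, with 416, 350, 542 and 2027 fragments. WT was the highest of the 4 lists in rank. The relative fragment ratios lay at 0.965 (0.835 to 1.12) for null over WT and 0.983 (0.894 to 1.08) for the siRNA pair, and both intervals held 1.

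Yap1 and Wwtr1 encode the coactivators that TEAD proteins bring to DNA. The Yap1 site (chr9:8003160-8005204, summit 0.05 kb upstream of the start, shared with a TSS of Gm45494) was among the steadiest, with percentiles of 81.8 in WT, 77.1 in null, 76.5 with NT siRNA and 79.3 with H2A.Z siRNA. It held 200, 168, 230 and 871 fragments, and both relative fragment ratios were close to 1, at 0.964 (0.780 to 1.19) and 0.996 (0.860 to 1.16). Its highest peak spanned 1097 bp in WT, 1053 in null, 901 bp with NT siRNA and 2028 bp with H2A.Z siRNA. The Yap1 window held 12 peaks at 10 sites in WT, 9 at 7 in null and 10 at 8 with NT siRNA. With H2A.Z siRNA it held 9 peaks at 9 sites, so some sites with 1 peak there held more in other lists. The Wwtr1 site (chr3:57574927-57576874, summit 0.25 kb upstream) ranked at 90.5 in WT, 77.8 in null, 65.7 with NT siRNA and 75.1 with H2A.Z siRNA. It held 345, 270, 493 and 2170 fragments. WT again had the highest rank, with a fall of 12.8 points in null that became a difference of −3.09 points when ranked by −log10 p, while the relative fragment ratio of 0.898 (0.763 to 1.06) held 1. After H2A.Z siRNA that ratio was 1.16 (1.05 to 1.28) against NT siRNA, with a rank rise of 9.47 points. The rise lay between 2.67 and 11.6 points in the 5 settings that measured it.

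Vgll3 encodes a vestigial-like cofactor that binds TEAD proteins in place of YAP. Its TSS site (chr16:65814733-65816302, UTR) ranked at 90.3 in WT, 81.9 in null, 74.1 with NT siRNA and 76.3 with H2A.Z siRNA. The summits held 541, 639, 702 and 2410 fragments, the most of any leading TSS site in all 4 lists. Rank and fragments moved in opposite directions between WT and null. The rank fell by 8.42 points while the relative fragment ratio was 1.36 (1.21 to 1.52), and the local background under the peak was 53.5 fragments in WT and 63.7 in null, against genome-wide backgrounds of 8.85 and 5.12. Ranked by the −log10 p-value in place of fold, the same site was 0.230 points higher in null. The next site, 3.78 kb inside the gene, behaved alike, with 286 fragments in WT and 398 in null and a rank difference of −5.51 points. This intronic site and the others in the next sentence were chosen after their values were seen. Of the remaining sites in the gene, those 19.69 and 35.09 kb from the start rose by 15.0 and 16.6 points in null, and the one at 48.71 kb fell by 19.1 points. By fragments, the interval of the relative ratio lay above 1 at 1 of the 2 that rose and held 1 at the other. Over the 7 shared Vgll3 sites it lay above 1 at 4 and held 1 at 3, where 12.8% of all shared sites lay above 1.

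LATS2 is the kinase that phosphorylates YAP and TAZ. The leading Lats2 site by the rule (chr14:57745341-57746842, UTR, shared with a TSS of Gm49361) lay at an internal TSS 12.29 kb inside the annotated gene. It ranked at 85.6 in WT, 82.2 in null, 76.7 with NT siRNA and 83.6 with H2A.Z siRNA, with 192, 143, 312 and 1257 fragments. The relative fragment ratios, 0.855 (0.683 to 1.07) and 1.06 (0.935 to 1.20), both held 1. A stronger site stood 2.19 kb upstream of the gene start (chr14:57760036-57761270), outside the 1 kb limit and named here after its values were seen, with percentiles of 96.0, 97.4, 92.3 and 90.9. WT had the highest rank at the internal TSS and null at the upstream site, and the lowest ranks were in the NT siRNA and the H2A.Z siRNA list respectively.

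AMOTL2 is an angiomotin-like scaffold that binds YAP and promotes its phosphorylation by LATS kinases. Its TSS site (chr9:102717083-102718913, UTR, 1.10 kb inside the annotated start) had the largest fall of any leading TSS site between WT and null. The percentile was 80.7 in WT, 61.1 in null, 59.8 with NT siRNA and 62.0 with H2A.Z siRNA. WT stood apart and the 3 lists from null cells were alike, which does not separate genotype from embryo or culture of origin. The summits held 411, 236, 530 and 2177 fragments. The relative fragment ratio for null over WT was 0.659 (0.559 to 0.775), the only leading TSS interval that lay below 1 in that pair. The rank fall stayed between −21.8 and −7.83 points in all 5 settings that measured it. For H2A.Z siRNA over NT siRNA the relative fragment ratio was 1.08 (0.982 to 1.19). An intronic site of Amotl2 9.74 kb from the start fell alongside it, by 18.1 points from 66.5 to 48.4, and is named after its values were seen. Of the 7 shared sites of the locus, 2 ranked higher in null and 5 lower, with a median of −4.34 points and a highest value of 4.28, so the other sites moved less.

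Ankrd1 encodes a cardiac ankyrin repeat protein and is among the most used readouts of YAP activity. Its TSS site (chr19:36119747-36120529, summit in a UTR 0.03 kb from the start) had the largest rise of the 69 member sites shared by WT and null. The percentile was 61.2 in WT, 91.9 in null, 88.3 with NT siRNA and 92.1 with H2A.Z siRNA. WT was low and the 3 lists from null cells were all high. Here too, genotype was not separated from embryo or culture of origin. The summits held 48, 114, 119 and 603 fragments, and the relative fragment ratio was 2.72 (1.93 to 3.90) for null over WT and 1.33 (1.09 to 1.64) for H2A.Z siRNA over NT siRNA. The peak was 485 bp wide in WT, 645 bp in null, 735 bp with NT siRNA and 783 bp with H2A.Z siRNA. The rise between WT and null stayed between 30.2 and 38.8 points in all 5 settings that measured it. The other 3 Ankrd1 sites moved less. The site 9.39 kb upstream, the strongest of the locus in WT at 93.7, stood at 91.5 in null, 83.7 with NT siRNA and 86.3 with H2A.Z siRNA. The sites 9.70 and 16.09 kb downstream of the start differed by 6.44 and −7.89 points between null and WT.

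**Figure D4:**
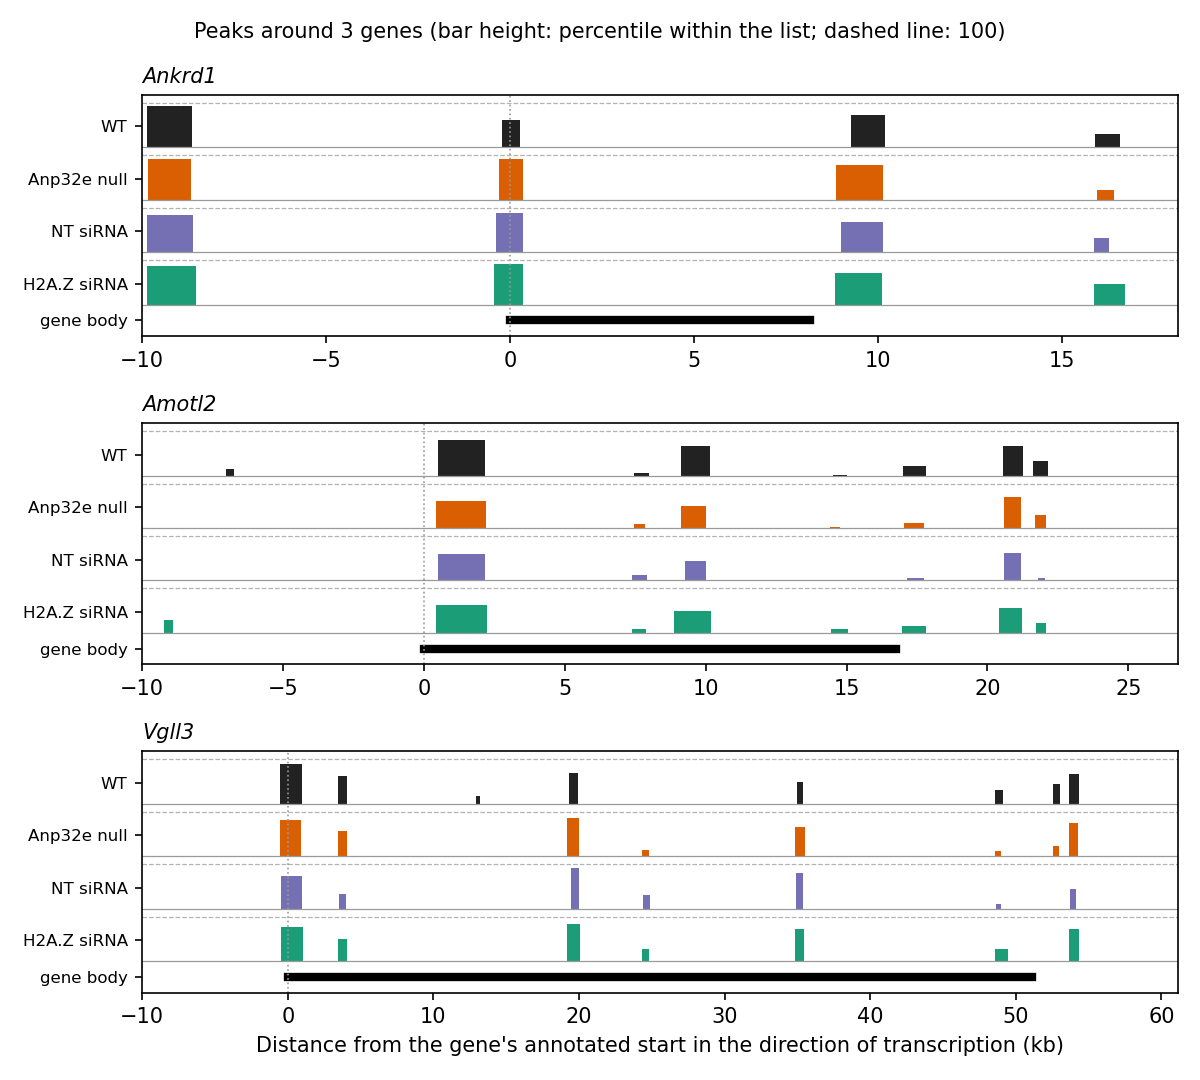
Peaks at Ankrd1, Amotl2 and Vgll3 in the 4 lists, by distance from the annotated start in the direction of transcription (x axis, kb), with bar height showing the percentile within the list (the dashed line is 100) and the black bar the gene body. The Ankrd1 TSS bar is lowest in WT (61.2), the Amotl2 TSS bar is highest in WT (80.7), and the Vgll3 TSS bar falls from 90.3 in WT to 81.9 in null.

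Over all windows, 99 sites were called in WT or null. Of these, 69 were called in both, 18 in WT only (18.2%, against 16.4% of all sites) and 12 in null only (12.1%, against 14.6% of all sites). Both shares lay near those of the whole genome. At the 69 shared sites, 23 ranked higher in null and 46 lower, and the median difference was −4.29 points against −0.741 over all 66194 shared sites. By the 10-point call, 7 of 69 were higher (19.1% of all shared sites) and 17 lower (21.4% of all shared sites). Of the 13 shared TSS sites, 12 ranked lower, with a median of −8.42 points, and the 54 shared sites with no TSS of any gene had a median of −2.42 points. The leading TSS sites of all protein-coding genes had a median of −1.27 points, and the difference between TSS and other sites was not tested. By fragments, the interval of the relative ratio lay above 1 at 7 of the 69 and below 1 at 3, against 12.8% and 9.37% of all shared sites. More sites ranked lower than higher, while more intervals of the fragment ratio lay above 1 than below, and the cause was not tested.

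**Figure D5:**
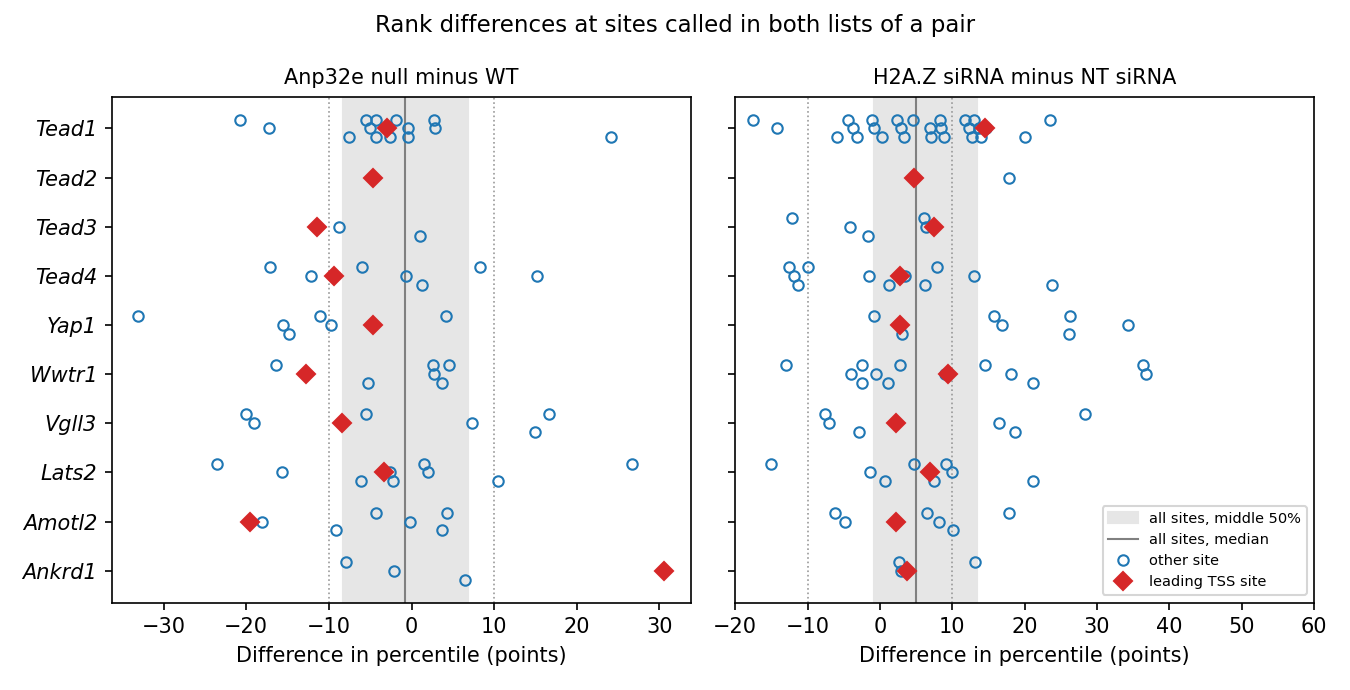
Difference in percentile at every member site called in both lists of a pair, by gene (x axis, percentile points), with leading TSS sites as filled diamonds and other sites as open circles. Grey bands span the middle 50% of all sites, grey lines their median and dotted lines 10 points either way. In null minus WT, 9 of the 10 diamonds lie below 0, and Ankrd1 lies at 30.6.

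Among single sites, the largest rises from WT to null after Ankrd1 were in introns. A Lats2 site (chr14:57736465-57738061) stood at percentile 8.14 in WT and 34.8 in null on 25 fragments in each, over a local background of 10.1 fragments in WT and 5.22 in null. Its relative fragment ratio of 1.15 (0.632 to 2.08) held 1. A Tead1 site (chr7:112812277-112814582) stood at 51.4 in WT and 75.5 in null on 40 and 56 fragments, with a ratio of 1.61 (1.05 to 2.47). The same Tead1 site ranked at 62.2 with NT siRNA and 82.2 with H2A.Z siRNA, with a ratio of 1.83 (1.44 to 2.35) between them. It was thus higher in null than in WT and higher again after H2A.Z siRNA than after NT siRNA.

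The largest falls were intronic as well. A Yap1 site (chr9:7983308-7983968) stood at 41.0 in WT on 34 fragments and at 7.92 in null on 16, a fall of 33.1 points with a relative fragment ratio of 0.540 (0.278 to 1.01). A Lats2 site (chr14:57717787-57718604) fell by 23.6 points, from 42 fragments to 23. A Tead1 site at an internal TSS (chr7:112760434-112761172) fell by 20.8 points, from 40 fragments to 23. All 3 of these intervals held 1, and all 3 sites were called in both siRNA lists.

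Sites called in 1 list of the pair were weak in the list that had them. Of the 18 sites called in WT and not in null, the highest was an internal TSS of Tead4 (chr6:128275649-128276571), at 38.2 on 36 fragments and called in no other list. It was followed by intronic sites of Tead1 (chr7:112883749-112884430) at 34.5 and Wwtr1 (chr3:57486049-57486508) at 32.0, both called again in the siRNA lists. The 12 sites called in null and not in WT had a median percentile of 12.2 in null. The strongest were an intronic Tead4 site (chr6:128239388-128240242) at 41.9 on 44 fragments, a Wwtr1 site (chr3:57504592-57505076) at 23.1 and a further Tead4 site (chr6:128253242-128253936) at 18.2. All 3 were called in both siRNA lists, and the first stood at 54.1 and 60.4 there.

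The siRNA lists come from null cells too, and they were read for these sites. Of the 12 sites called in null and not in WT, 8 appeared in the NT siRNA list and 11 in the H2A.Z siRNA list, against 7541 and 9765 of all 14034 such sites. Of the 18 called in WT and not in null, 10 appeared in the NT siRNA list and 12 in the H2A.Z siRNA list, against 4539 and 6348 of all 15786. Most member sites called in WT and missing from null were therefore called in each of the siRNA lists. Of the 18, 3 were called after H2A.Z siRNA and not after NT siRNA, and the H2A.Z siRNA list was the deepest.

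Between the siRNA lists, 137 member sites were called in one or the other. Of these, 97 were called in both, 4 after NT siRNA only (2.92%, against 4.16% of all sites) and 36 after H2A.Z siRNA only (26.3%, against 23.5% of all sites). At the 97 shared sites the median rank difference was 4.77 points, against 4.98 over all 81659 shared sites. By the 10-point call, 30 of 97 were higher (33.6% of all shared sites) and 9 lower (6.08% of all shared sites). The relative fragment ratio had an interval above 1 at 17 of the 97 and below 1 at 13, against 13908 and 12267 of all 81659 shared sites. The member sites thus moved much as the whole genome did between these lists. The H2A.Z siRNA list was the deeper and longer of the pair. With lists cut to equal length the median of the member sites was −2.22 points and that of all sites −0.560, and 5 member sites in place of 36 were called after H2A.Z siRNA only. The parts of depth and of list length in these differences were not separated from that of the siRNA.

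The largest rises after H2A.Z siRNA were in introns of the coactivator genes. The Wwtr1 site with the core shown above (chr3:57550439-57551307) stood at percentile 15.8 after NT siRNA on 37 fragments and 52.7 after H2A.Z siRNA on 285, with a relative fragment ratio of 2.03 (1.43 to 2.94). In the untransfected cells it stood at 49.3 in WT and 53.9 in null, so the NT siRNA list was the low one of the 4. A further Wwtr1 site (chr3:57511963-57512832), not called in WT or null, rose from 22.9 to 59.3 with a ratio of 1.74 (1.08 to 2.93). A Yap1 site (chr9:7952811-7953655) rose from 40.6 to 74.9 with a ratio of 1.78 (1.20 to 2.76) and stood at 62.3 in WT and 66.5 in null. At Yap1 as a whole, 5 of 8 shared sites were at least 10 points higher after H2A.Z siRNA, a call that 33.6% of all shared sites met, and 0 were at least 10 points lower, a call that 6.08% met. These ranks come from lists of unequal length. By fragments, the interval of the relative ratio lay above 1 at 2 of the 8 Yap1 sites, both among the 5, and held 1 at the other 6.

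The largest falls were at Tead1 and Lats2. The intronic Tead1 site that was absent from null (chr7:112883749-112884430) fell by 17.6 points, from 58.8 on 42 fragments to 41.2 on 83, with a relative fragment ratio of 0.520 (0.354 to 0.772). An intronic Lats2 site (chr14:57706785-57707839) fell by 15.1 points with a ratio of 0.597 (0.427 to 0.843), and it had also been 15.7 points lower in null than in WT. The Tead1 site with 2 cores (chr7:112854382-112854886) fell by 14.2 points with a ratio of 0.559 (0.379 to 0.835) and was called in neither WT nor null. All 3 intervals lay below 1. The sites were picked for their falls in rank, which uses the same summit fragments, so the intervals are no separate evidence.

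Of the 4 sites called after NT siRNA and not after H2A.Z siRNA, the strongest was the intronic Tead1 site with the core shown above (chr7:112770636-112770888), at percentile 24.6 on 25 fragments. A Wwtr1 site (chr3:57530690-57531217) stood at 22.9 on 20 fragments and a site downstream of Tead1 (chr7:112914678-112915221) at 5.78 on 15. Of the 36 called after H2A.Z siRNA and not after NT siRNA, the strongest were an intronic Lats2 site (chr14:57709245-57709809) at 39.2, which was also called in WT at 27.6, an intronic Tead1 site (chr7:112703535-112703847) at 32.8 and a site upstream of Amotl2 (chr9:102707432-102707749) at 29.6. The median of the 36 was 7.73, so most stood among the weakest peaks of their list. At the depth of NT siRNA, 4 of them had fewer fragments expected than the 11 needed there at the genome-wide background. Sites with a higher local background need more than that, so this count is a lower limit. With the H2A.Z siRNA list scaled to the background of the NT siRNA list, 21 sites were called after H2A.Z siRNA only, in place of 36.

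Peak widths were compared as ratios at shared sites. Null over WT, the median width ratio was 0.943 at the 69 shared member sites and 0.982 over all sites. H2A.Z siRNA over NT siRNA, it was 1.28 at the 97 shared member sites and 1.24 over all sites, and 90.7% of member sites were wider against 90.8% of all. At the leading TSS sites that ratio was 1.04, against 1.14 for protein-coding genes. Leading TSS peaks of the members were wide in every list, with medians of 1486 bp in WT, 1356 bp in null, 1451 bp with NT siRNA and 1592 bp with H2A.Z siRNA, against 1126, 1099, 1070 and 1282 bp for protein-coding genes.

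A further 41 genes of the pathway, listed by role, were read at their leading TSS sites only. A TSS peak was present in all 4 lists at 39 of them. Vgll1 had none in any list and Dchs1 had none after NT siRNA. In null minus WT, 6 of 39 measured genes ranked higher and 33 lower, with a median of −5.34 points, and 0 were at least 10 points higher and 11 at least 10 points lower. The background shares of these calls are the 7.26% and 11.5% given above. By role, the 18 target genes had a median of −7.55 points with 7 at least 10 points lower, and 19 core kinases and scaffolds had −5.10 points with 4. The lowest were Ccn1, a secreted matrix protein and YAP target, at −20.7 points (55.2 in WT and 34.4 in null), and the kinase gene Map4k4 at −18.6 points. The highest were Nt5e, an ecto-nucleotidase, at 2.92 points and Nf2, the merlin tumour suppressor that activates LATS kinases, at 1.97 points. None of the 39 rose as Ankrd1 did. By fragments the picture differed, with a median relative ratio of 1.03 over the 39 genes. Its interval lay above 1 at 9, among them the kinase genes Stk3, Stk4 and Lats1 and the target gene Ccn2, and below 1 at 2, the target genes Dock5 and Nuak2, beside the background shares of 17.4% and 6.49%. Of the 11 genes at least 10 points lower in rank, the interval held 1 at 9, Ccn1 (0.899, 0.751 to 1.08) and Map4k4 (0.754, 0.551 to 1.03) included, and lay below 1 at 2.

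In H2A.Z siRNA minus NT siRNA, 29 of the 39 genes ranked higher and 10 lower, with a median of 4.67 points. Of these, 8 were at least 10 points higher and 0 at least 10 points lower, beside background shares of 14.4% and 2.90%. The target genes had a median of 5.04 points with 3 at least 10 points higher, and the core kinases and scaffolds 1.73 points with 5. The highest were Igfbp3, which encodes a binding protein of insulin-like growth factors, at 24.7 points and the scaffold gene Amot at 15.0 points. The lowest were the cofactor gene Vgll2 at −6.82 points and the receptor kinase gene Axl at −6.40 points. The interval of the relative fragment ratio lay above 1 at 4 of the 39 genes, Lats1, Ptpn14, Amot and Ccdc80, and below 1 at 4, Nf2, Vgll2, Gadd45a and Nt5e, beside background shares of 15.4% and 22.5%. Of the 8 genes at least 10 points higher in rank, the interval lay above 1 at 4 and held 1 at 4, Igfbp3 (1.14, 0.860 to 1.52) included. The rank values were not recomputed with lists of equal length.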

How the data were processed

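ATAC-seq libraries of 9 MEF samples were made with a Nextera kit. Reads had been mapped by the authors with Bowtie2 to mm10, stripped of duplicates with Picard and merged, and MACS2 had called peaks on whole fragments, 1 list per group. In the deposited lists the fold enrichment is a ratio of summit pileup to local background, each raised by a pseudocount of 1. The deposited p-values and q-values are −log10 values, and a further deposited column gives the summit offset in bp. Whole-fragment edges make a Tn5 shift of little effect on the peaks. MACS2 pileup was recovered from fold and p under its Poisson model, within 0.05 of a whole number for 100% of peaks, and recovery was tested on simulated data.

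Lists were restricted to chromosomes 1 to 19, X and Y, and no other region was masked. Overlap was 1 bp or more. The p-values of MACS2 compare a peak with its own background, and no test was made between groups. The members and the gene lists were chosen with earlier results of these data known. All 10 genes were named, and single sites were the leading TSS site of each gene, the 3 largest rank rises and falls in each pair and the 3 strongest sites called in 1 list of a pair. Sites outside this rule are marked as named after their values were seen, except that all 4 Ankrd1 sites are given. Alternatives were stricter, shorter or depth-scaled lists, other windows, TSS sets and merging, and ranking by −log10 p. Intervals are exact binomial for ratios and Wilson for shares. Python 3.11.15, NumPy 2.4.6, SciPy 1.17.1, pandas 2.3.3, pysam 0.24.0, samtools 1.23.1 and matplotlib 3.10.9 were used.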

Additional observations from a re-analysis of the deposited data

How the results depend on the processing

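Of 67 recomputed values for the site counts, medians and TSS presence, 53 stayed within 1.5 times the count or within the spread over genes, and 14 moved. With a −log10 q of 5 or more, 9 member sites were called in WT and not null and 7 in null and not WT, in place of 18 and 12. With the 20000 strongest peaks of each list, 13 sites were called in both WT and null, 4 in WT only and 3 in null only, 8 were called after both siRNAs and 2 after H2A.Z siRNA only, the median of H2A.Z siRNA minus NT siRNA was −19.5 points, and 0 genes had a TSS peak in all 4 lists. That setting holds few member sites by construction. With all lists cut to the length of the shortest, 11 sites were called after NT siRNA only and 5 after H2A.Z siRNA only, and the median turned to −2.22 points. With the deeper list of each pair scaled to the genome-wide background of the other, these counts were 7 and 21, and the H2A.Z siRNA list was still the longer. The direction of the rank difference between WT and null held at 9 of the 10 leading TSS sites in the settings that measured them, and at Vgll3 in 5 of 6. With the 20000 strongest peaks, 5 leading TSS sites could be measured in that pair and 1 between the siRNA lists. The use of protein-coding transcripts alone left every leading TSS difference unchanged. Of 106 values for single leading TSS sites, 15 moved, and the cause was not tested. No paired analysis was possible because the libraries of each group were pooled into 1 list before peaks were called, so leaving out a library was not possible either. Depth limits the weak sites most, since summits of about 20 fragments give wide intervals.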
